A study of Mus musculus with 2 samples.

Results

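The enzymes of cholesterol synthesis described here were the 8 genes Hmgcs1, Mvd, Idi1, Fdps, Fdft1, Sqle, Lss and Dhcr7, taken in the order in which their products act. They were chosen by gene identifier, which was matched to the symbol in the GENCODE mouse annotation of GRCm38, and make up 8 of the 43346 genes measured. A further 11 enzymes of the same route are given for comparison. The rule uses no measured value.

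RNA longer than 200 nt was sequenced as total RNA from whole liver of B6NCrl mouse embryos at embryonic day 15.5. The study held a single group of 2 libraries, labelled as biological replicates 1 and 2. Livers of 78 embryos were pooled for replicate 1 and of 62 embryos for replicate 2, with males and females mixed in each pool and all described as healthy. The input was 10 ng of RNA for each library, spiked with synthetic RNAs, and no treated, mutant or control group was included. The only comparisons the design allows are therefore of genes within the tissue and of replicate 2 with replicate 1, which has no test, since it sets 1 library against 1.

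Cholesterol is built from acetyl-CoA through mevalonate, the isoprenoid diphosphates and squalene, which is closed into the sterol ring system of lanosterol and then trimmed and reduced to cholesterol. Its enzymes sit mostly at the endoplasmic reticulum, and their genes are classic targets of SREBP-2, a membrane-bound transcription factor that is released when sterols are low. The liver is a main site of this synthesis in the adult, and in the embryo it shares its space with blood formation.

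All 8 enzymes were expressed at moderate to high levels in both libraries. The range between steps, from Mvd to Fdps, was far wider than the difference between libraries of any of the 8. Some steps, such as Fdft1 and Sqle, were not separated. Levels are given as TPM, which corrects for transcript length, after spike-ins were left out and the remaining genes rescaled. All 8 reached at least 10 TPM in both libraries, as did 27.8% of the 21474 protein-coding genes. Together they summed to 846 TPM in replicate 1 and 817 TPM in replicate 2, a mean of 831 ± 21.1 TPM (SD, n = 2). Their share of all gene counts was 0.169% and 0.170%. In bulk tissue, fewer cells that express a gene and less RNA of it per cell cannot be told apart.

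The libraries held 34039426 and 44200838 expected counts of genes, and spike-ins took 2.24% and 2.03% of all counts. Their counts were not those of 1 library deposited again, with a chi-square of 18.0 per gene over 17602 genes and of 9.37 per gene over the 8 enzymes. All 10 hepatocyte markers reached 10 TPM in each library and summed to 49972 and 40332 TPM, while the 10 erythroid markers summed to 384729 and 392838 TPM. Macrophage markers (8 genes) summed to 349 and 295 TPM, endothelial markers (6) to 69.8 and 63.7 TPM and stellate and mesenchymal markers (6) to 264 and 265 TPM. The 6 adrenal and gonad markers summed to 32.1 and 26.0 TPM, of which Hsd3b1 alone held 28.0 and 22.5 TPM, while the defining factor Nr5a1 had 0.0207 and 0.0619 TPM. The 6 pancreas markers summed to 28.9 and 14.1 TPM.

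Hmgcs1 encodes the cytosolic HMG-CoA synthase, which joins acetyl-CoA and acetoacetyl-CoA into HMG-CoA. The gene (ENSMUSG00000093930) lies on the plus strand at chr13:119690379-119708260 (GRCm38). It was at 157 TPM in both libraries (156.8 ± 0.206 TPM, SD, n = 2), with 15296 and 20657 expected counts, and ranked 585 among protein-coding genes. This was the second highest level of the 8 enzymes in TPM and the smallest spread between libraries, an SD of 0.131% of the mean. The rank by spread depends on scaling. By expected counts per library total, the log2 ratio of replicate 2 over replicate 1 was smallest for Mvd (0.003), against 0.06 for Hmgcs1. With spike-in scaling of TPM it was 0.15 for Hmgcs1. Acat2, the cytosolic thiolase that supplies its substrate, had 93.6 and 86.6 TPM.

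The first 250 bases before the RefSeq start of Hmgcs1 and of Mvd (GRCm38.p6) are shown because these genes hold a high and the lowest level of the 8. Of the 5 enzymes with a RefSeq promoter, only Hmgcs1 also had a match to the sterol regulatory element, as searched, in this window. Capitals mark that element (searched as TCACNCCAC), the CCAAT box (CCAAT) and the GC box (GGGCGG), each on both strands, so that ATTGG and CCGCCC are the latter pair read on the other strand. No marked motif overlapped another. Hmgcs1 is on the plus strand at chr13:119690101-119690350 and Mvd on the minus strand at chr8:122443423-122443672.
Hmgcs1: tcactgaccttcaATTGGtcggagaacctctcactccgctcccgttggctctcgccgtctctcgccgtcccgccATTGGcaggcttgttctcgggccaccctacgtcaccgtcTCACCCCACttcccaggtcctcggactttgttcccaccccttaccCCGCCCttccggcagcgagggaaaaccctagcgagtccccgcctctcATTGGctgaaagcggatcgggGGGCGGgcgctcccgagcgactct
Mvd: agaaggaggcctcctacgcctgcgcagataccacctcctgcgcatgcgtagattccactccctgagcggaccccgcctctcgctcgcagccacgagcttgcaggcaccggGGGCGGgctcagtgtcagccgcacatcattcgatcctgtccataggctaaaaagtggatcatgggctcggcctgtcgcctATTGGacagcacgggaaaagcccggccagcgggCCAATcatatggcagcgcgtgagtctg

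In Hmgcs1 the element TCACCCCAC spans bases 137 to 129 before the start, with 3 CCAAT boxes and 2 GC boxes in the same window. Mvd had 2 CCAAT boxes and 1 GC box there, Lss had 1 and 2, and Idi1 had 2 and 1. Of the 3 RefSeq windows of Dhcr7, the one before position 143830214 held 2 CCAAT boxes and 3 GC boxes. Over 32851 RefSeq windows of the same length, 1.05% held the sterol element as searched, 33.8% a CCAAT box and 32.7% a GC box. Counted by window, 5 of the 7 windows of the 5 enzymes held a CCAAT box and 6 of 7 a GC box. Both other windows of Dhcr7 lacked a CCAAT box. The Idi1 window and the Dhcr7 windows before 143823399 and 143830214 lie wholly within annotated exons. Of the 12 windows of the 11 enzymes given for comparison, 10 held a CCAAT box, 10 a GC box and 0 the sterol element. These are matches of letters, not measured binding, and no variant of the sterol element was searched. The RefSeq starts of Dhcr7 lay -6459, -6227 and 588 nt from the start of its leading transcript, with minus for upstream. For Idi1 this distance was 105 nt, for Hmgcs1 -95 nt, for Lss -2 nt and for Mvd 0 nt. No RefSeq promoter is shown for Fdps, Fdft1 and Sqle.

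Mvd encodes mevalonate diphosphate decarboxylase, which turns mevalonate, once phosphorylated, into isopentenyl diphosphate. The gene (ENSMUSG00000006517, minus strand, chr8:122433601-122443422) had 23.2 TPM in replicate 1 and 22.4 TPM in replicate 2, or 22.8 ± 0.575 TPM (SD, n = 2). It was the lowest of the 8 in both libraries, ranking 3687 among protein-coding genes. Its 1202 expected counts in replicate 1 have an exact 95% Poisson interval of 1135 to 1272, and its 1564 in replicate 2 one of 1487 to 1644, counting error only.

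The kinases just before Mvd were at similar low levels. Mvk, mevalonate kinase, had 30.0 and 29.9 TPM, and Pmvk, phosphomevalonate kinase, had 35.0 and 32.9 TPM. Mvd stood at 0.762 ± 0.0172 of Mvk and 0.672 ± 0.0116 of Pmvk. The stretch from Mvk to Mvd was thus lower in both libraries than Hmgcs1 earlier in the route and Idi1 after it.

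Idi1 encodes isopentenyl diphosphate isomerase, which makes the dimethylallyl diphosphate that primes chain growth. The gene (ENSMUSG00000058258, plus strand, chr13:8885501-8892451) had 76.0 and 79.0 TPM in replicates 1 and 2, a mean of 77.5 ± 2.11 TPM (SD, n = 2). It stood 3.40 ± 0.178 times as high as Mvd. The paralog Idi2 had 1 expected count in replicate 1 and 0 in replicate 2, so Idi1 held nearly all measured isomerase RNA.

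Fdps encodes farnesyl diphosphate synthase, whose product feeds both sterols and the isoprenoids used for protein prenylation, dolichol and ubiquinone. The gene (ENSMUSG00000059743, minus strand, chr3:89093588-89101959) was the highest of the 8, with 322 TPM in replicate 1 and 304 TPM in replicate 2 (313 ± 12.3 TPM, SD, n = 2). It ranked 273 among protein-coding genes. Its level was 2.00 ± 0.0809 times that of Hmgcs1, the next in order, and 13.7 ± 0.192 times that of Mvd.

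The measured genes of the isoprenoid branches that also draw on Fdps were all lower than Fdps itself. Of 9 measured genes of these branches, 5 reached 10 TPM in both libraries. The highest was Fnta, a subunit of the prenyl transferases, at 36.3 and 33.8 TPM, and the lowest was Nus1, a subunit of the dolichol-forming enzyme, at 5.25 and 4.46 TPM. Nus1 also had the largest difference between libraries in this list, a log2 ratio of -0.20. Ggps1, which extends farnesyl diphosphate to geranylgeranyl diphosphate, had 7.95 and 8.60 TPM, and Fdps was 37.9 ± 3.60 times as high.

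Fdft1 encodes squalene synthase, the first enzyme committed to sterols. The gene (ENSMUSG00000021273, minus strand, chr14:63145150-63179578) had 71.5 TPM in replicate 1 and 68.4 TPM in replicate 2 (70.0 ± 2.20 TPM, SD, n = 2). Its level was well below that of Fdps, the step before, with a ratio of Fdps to Fdft1 of 4.47 ± 0.0346.

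Sqle encodes squalene epoxidase, a second control point of the route. The gene (ENSMUSG00000022351, plus strand, chr15:59315077-59331192) had 68.9 and 68.4 TPM in replicates 1 and 2 (68.7 ± 0.315 TPM, SD, n = 2). Its library values overlapped those of Fdft1, so the 2 steps around squalene could not be put in order.

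Lss encodes lanosterol synthase, which folds the epoxide into the first sterol. The gene (ENSMUSG00000033105, plus strand, chr10:76531588-76557138) had 68.1 TPM in replicate 1 and 64.3 TPM in replicate 2, a mean of 66.2 ± 2.72 TPM (SD, n = 2). From Fdft1 through Lss, 3 steps in a row lay between 64.3 and 71.5 TPM. This closeness holds for the sum of all transcripts of Lss, whose coding form alone had 41.0 and 34.9 TPM.

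Dhcr7 encodes the reductase that turns 7-dehydrocholesterol into cholesterol. The gene (ENSMUSG00000058454, plus strand, chr7:143823145-143848410) had 60.3 TPM in replicate 1 and 52.8 TPM in replicate 2 (56.6 ± 5.29 TPM, SD, n = 2). Its SD of 9.35% of the mean was the widest of the 8 in TPM, a rank that depends on scaling. With spike-in scaling its log2 ratio between libraries, -0.04, was the smallest of the 8 in size. By expected counts per library total Lss (-0.12) and Idi1 (0.11) differed more than Dhcr7 (-0.08). In both libraries Dhcr7 stood below Sc5d, the desaturase that makes its substrate, which had 73.0 and 74.9 TPM.

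**Figure D1:**
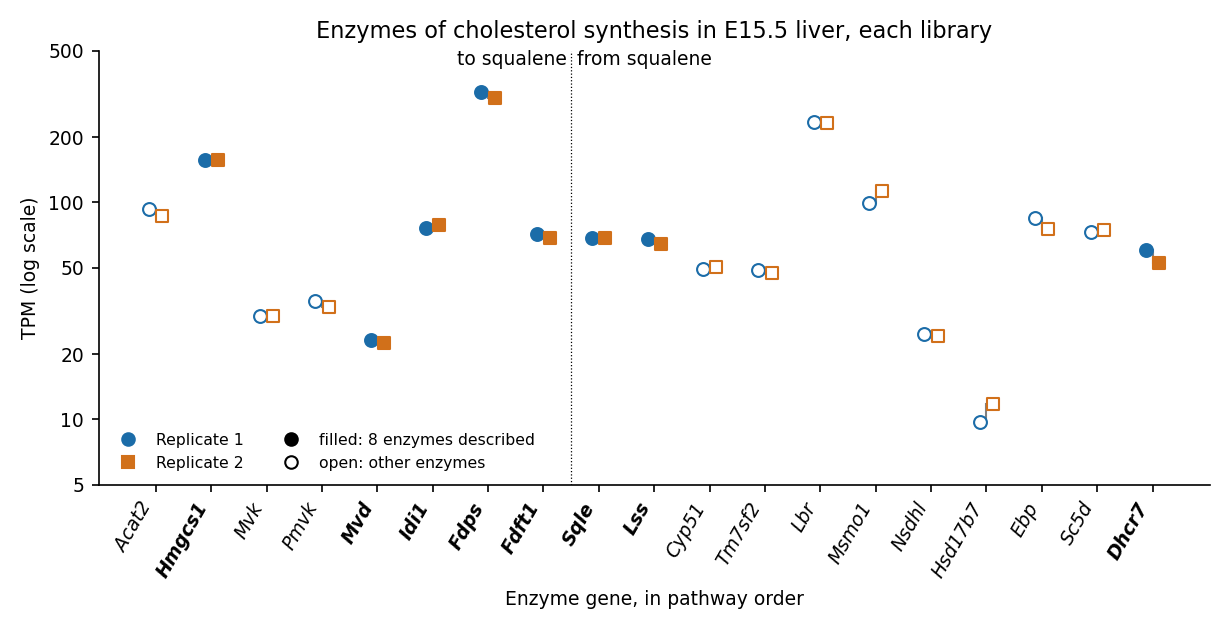
TPM on a log axis of each enzyme of the route in pathway order, with a circle for replicate 1 and a square for replicate 2, filled for the 8 enzymes described and open for the 11 given for comparison. Fdps stands highest at 304 to 322 TPM, the run from Mvk to Mvd lies between 22.4 and 35.0 TPM, and Hsd17b7 stands lowest at 9.76 to 11.8 TPM.

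By mean TPM the order was Fdps, Hmgcs1, Idi1, Fdft1, Sqle, Lss, Dhcr7 and Mvd. Fdps, Hmgcs1 and Idi1 were each separated from the next, with no overlap of the library values. Idi1 in its lower library (76.0 TPM) was above Fdft1 in its higher one (71.5 TPM). Fdft1 and Sqle overlapped, and Sqle (lowest 68.4 TPM) and Lss (highest 68.1 TPM) did not overlap by library, although the authors' deposited intervals for these values did. The same held for Lss (lowest 64.3 TPM) and Dhcr7 (highest 60.3 TPM). Mvd was apart from all others. The order by counts differed: Hmgcs1 came before Fdps, whose transcript of 1241 nt is the shortest of the 8 against 3233 nt for Hmgcs1, and Lss moved ahead of Fdft1.

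**Figure D2:**
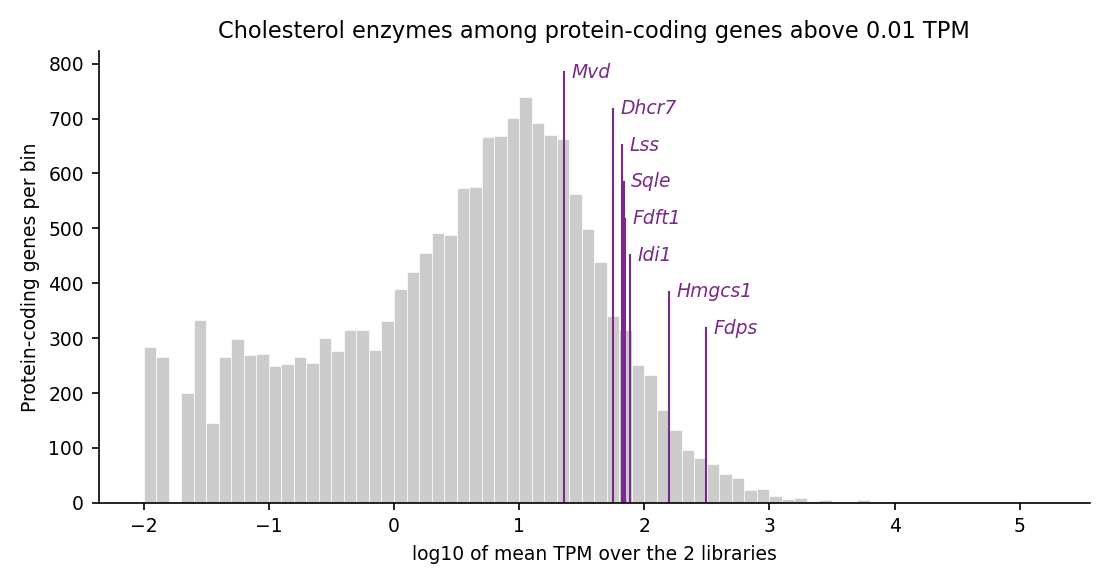
Number of protein-coding genes per bin of 0.1 in log10 mean TPM, for the 16759 genes above 0.01 TPM, with a line for each of the 8 enzymes whose height carries no meaning. All 8 lie in the upper part of the distribution, from Mvd at 22.8 TPM to Fdps at 313 TPM, and 5 of them crowd between 56.6 and 77.5 TPM.

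The 8 enzymes fell between the 82.8 percentile (Mvd) and the 98.7 percentile (Fdps) of protein-coding genes, and the other 7 all lay at or above the 92.1 percentile. Of the 3 enzymes before squalene given for comparison, all 3 reached 10 TPM in both libraries, and they summed to 159 and 149 TPM with Acat2 the highest. Of the 8 after squalene, 7 reached it, and they summed to 624 and 628 TPM. The exception was Hsd17b7, a ketosteroid reductase, which had 9.76 TPM in replicate 1 and 11.8 TPM in replicate 2.

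Lbr, a sterol reductase that is also a structural protein of the nuclear envelope, led the later steps with 234 and 232 TPM. This was 4.87 ± 0.0790 times the level of Tm7sf2, which catalyses the same reduction and had 48.7 and 47.1 TPM. Cyp51, the lanosterol demethylase, had 49.3 and 50.3 TPM. The enzymes that remove the remaining methyl groups differed widely among themselves, with 98.9 and 112 TPM for Msmo1 and 24.8 and 24.1 TPM for Nsdhl. Ebp, the sterol isomerase, had 85.0 and 75.6 TPM.

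The regulators of the route were themselves expressed. Of 9 measured sterol regulators, 7 reached 10 TPM in both libraries. Srebf2, the gene of SREBP-2, had 36.9 and 33.4 TPM, and Srebf1, whose products act more on fatty acid synthesis, had 57.5 and 50.7 TPM. Insig1, which retains the SREBP complex in the endoplasmic reticulum when sterols are plentiful, was the highest by the mean, at 56.1 and 61.0 TPM, although Srebf1 was above it in replicate 1. Mbtps2, a protease that releases the active factor, was the lowest at 4.40 and 4.996 TPM. Scap, the sterol-sensing escort of SREBP, had the largest difference between libraries, from 23.7 to 18.7 TPM (log2 ratio -0.33).

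Genes of sterol uptake, export and storage were mostly lower than the enzymes. Of 11 measured, 9 reached 10 TPM in both libraries. Scarb1, the receptor for high-density lipoprotein, was the highest with 80.9 and 70.8 TPM. Mylip, a ligase that marks the LDL receptor for breakdown, was the lowest with 7.08 and 7.36 TPM. Abca1, a cholesterol exporter, differed most between libraries, from 13.7 to 10.7 TPM (log2 ratio -0.33).

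Between the libraries the 8 enzymes moved little. Differences are log2 ratios of TPM + 1, replicate 2 over replicate 1, and so understate changes of low genes. At more than 2-fold, 0 of the 8 enzymes differed, against 0.672% of 8781 genes at 5 TPM or more in either library. In 7 of 8 the log2 ratio was within 0.1 of 0, as in 47.9% of the 6197 genes that reached 10 TPM in both libraries. The exception was Dhcr7 at -0.19. This count and its exception depend on scaling: by expected counts per library total 6 of 8 were within 0.1, with Idi1 (0.11) and Lss (-0.12) outside. With spike-in scaling 5 of 8 were, with Hmgcs1 (0.15), Idi1 (0.20) and Sqle (0.14) outside and Dhcr7 inside at -0.04. The share of all genes within 0.1 was not computed for these alternatives, so their counts have no background. In TPM without such scaling, the values other than Dhcr7 ran from -0.08 (Fdps and Lss) through -0.06 (Fdft1), -0.05 (Mvd), -0.01 (Sqle) and 0.00 (Hmgcs1) to 0.05 (Idi1).

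Their median was -0.06, beside -0.05 over all 13066 genes at 1 TPM or more in either library. In replicate 2, 6 of the 8 were lower, beside 60.8% of the 8781 genes. This split depends on scaling: after scaling to the spike-ins the median of all genes shifts to 0.08, the share of lower genes to 27.7%, and 1 of the 8 enzymes (Dhcr7) is lower and 7 higher. By expected counts per library total 4 were lower and 4 higher, beside 50.5% of the 8781 genes lower. By TPM scaled with TMM or DESeq2 factors 5 were lower and 3 higher, beside 56.4% and 55.8% of those genes lower. No direction common to the 8 enzymes is therefore given.

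**Figure D3:**
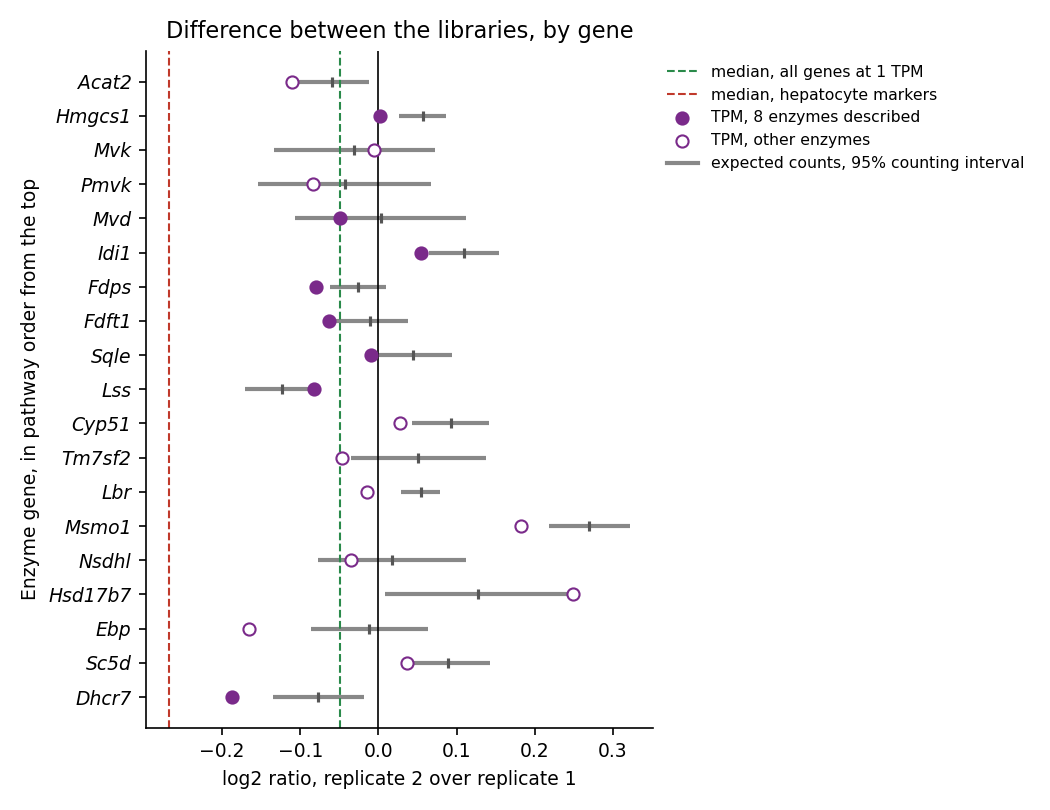
Log2 ratio of replicate 2 over replicate 1 for each enzyme in pathway order, as points for TPM + 1 (filled for the 8 enzymes described) and as ticks with grey bars for expected counts per library total with their 95% counting interval. The 8 enzymes lie between -0.19 and 0.05, around the dashed median of all genes at -0.05, and 7 of them to the right of -0.10, while the hepatocyte markers have a median of -0.27 and Hsd17b7 stands at 0.25.

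Counting error alone does not cover every difference. A 95% interval for the ratio of expected counts per library total was taken from the exact binomial (Clopper-Pearson) interval and covers counting error only. It left out a ratio of 1 in 4 of the 8 enzymes, as in 54.2% of the same 6197 genes. By this measure Hmgcs1 (log2 count ratio 0.06, interval 0.03 to 0.09) and Idi1 (0.11, 0.06 to 0.15) were higher in replicate 2. Lss (-0.12, -0.17 to -0.08) and Dhcr7 (-0.08, -0.14 to -0.02) were lower. At 4 of 8 the share is near that of all genes at this level. These calls rest on scaling to the library totals. Spike-ins in place of totals raise every log2 count ratio by 0.146, which is more than Lss or Dhcr7 lay below 0. By the other measure, TPM scaled to the spike-ins, Lss stood at 0.06 and Dhcr7 at -0.04.

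Hepatocyte markers were lower in replicate 2 in 9 of 10 cases, beside the 60.8% of all genes, with a median log2 ratio of -0.27 (-0.12 with spike-in scaling) and a summed level 0.807 times that of replicate 1. The median was -0.25 for macrophage markers, -0.14 for endothelial markers, -0.02 for erythroid markers and 0.04 for the 8 proliferation genes, and with spike-in scaling -0.11, -0.01, 0.13 and 0.18. For pancreas markers it was -1.08 over the 4 of 6 genes at 1 TPM or more, and -0.51 over all 6. The summed level of the 8 enzymes was 0.965 times that of replicate 1. Whether the makeup of the pools has a part in the enzymes' levels was not tested. Among the 11 enzymes given for comparison, Hsd17b7 showed the largest difference, from 9.76 to 11.8 TPM (log2 ratio 0.25), followed by Msmo1 at 0.18. By expected counts per library total Msmo1 (0.27) was ahead of Hsd17b7 (0.13). Their medians were -0.08 before squalene and 0.01 after it, and 0.06 and 0.15 with spike-in scaling.

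In 4 enzymes (Hmgcs1, Mvd, Fdps and Fdft1) the tables held a single transcript, which therefore carried the whole level. Idi1-201 held 98.7% ± 0.0195 and Sqle-201 98.6% ± 0.232 of the TPM of their genes (SD, n = 2). For Idi1 and Sqle the gene's level is thus nearly that of 1 coding form among those listed. For the 4 with a single listed transcript the share was fixed by the annotation, so other forms could not be seen.

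Lss was different. Its coding transcript Lss-201 (4667 nt, 22 exons) held 60.2% of the gene's TPM in replicate 1 and 54.2% in replicate 2 (57.2% ± 4.26, SD, n = 2). Lss-202, a processed transcript of 352 nt, held 20.1% and 21.8%, and Lss-205, a retained intron form of 425 nt, held 14.4% and 16.9%. By expected counts, which do not scale up short forms, Lss-201 held 88.0% and 84.6%, while Lss-202 held 1.63% and 1.88% and Lss-205 1.498% and 1.88%. With Lss-201 alone, 37.9 ± 4.36 TPM in place of 66.2 ± 2.72 TPM, Lss came below Dhcr7 in the order. The log2 ratio of Lss between libraries was -0.23 with Lss-201 alone.

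In Dhcr7 the leading transcript was Dhcr7-202, with 54.1 and 50.4 TPM, or 89.7% and 95.5% of the gene (92.6% ± 4.12, SD, n = 2). It starts at position 143829626, inside the annotated gene. Dhcr7-201, with the same coding length of 1413 nt but the upstream start at 143823167, held 0.627% ± 0.0851. This form and one of 721 nt annotated as subject to nonsense-mediated decay (ENSMUST00000145471) were named after their values were seen. The latter had 3.33 TPM in replicate 1 and was listed at 0 in replicate 2. Its posterior mean share was 6.42% and 1.12%. With Dhcr7-202 alone, the log2 ratio of Dhcr7 was -0.10 in place of -0.19, so part of its difference in TPM lay in its other forms.

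**Figure D4:**
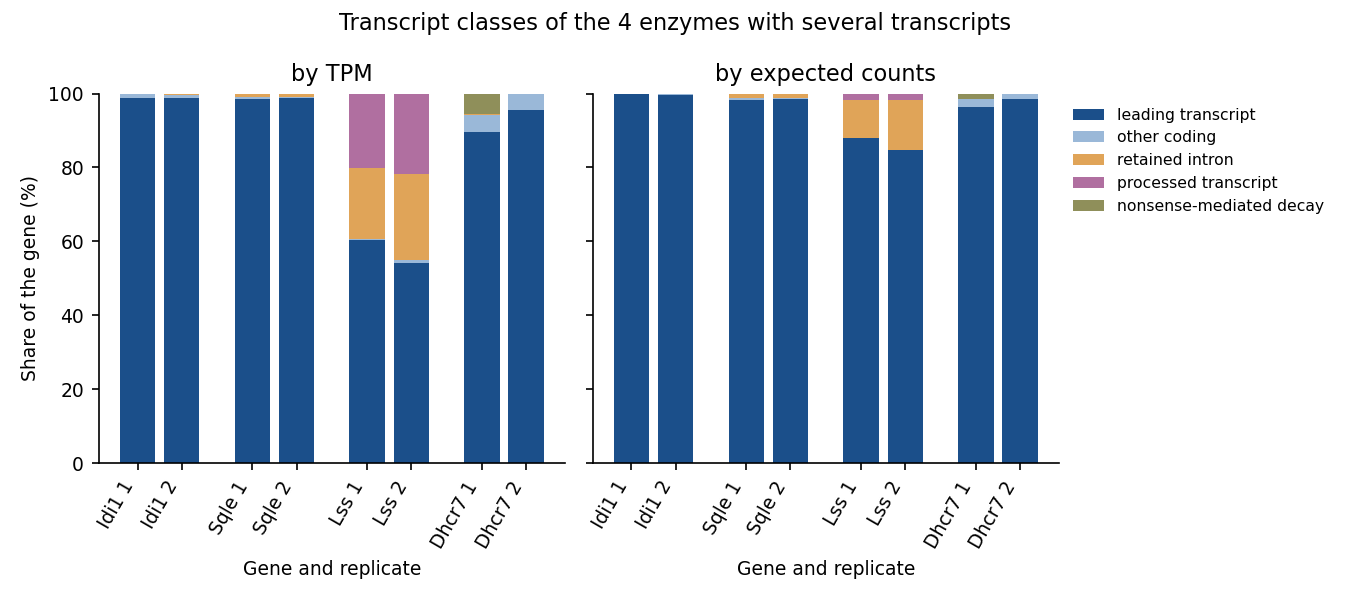
Share of each gene's total in percent, by TPM (left) and by expected counts (right), stacked by transcript class for the 4 enzymes with several transcripts, a bar per replicate. The leading transcript of Lss covers 60.2% and 54.2% by TPM but 88.0% and 84.6% by counts, and the nonsense-mediated decay form of Dhcr7 appears in replicate 1.

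Reads shared with other genes touched the 8 enzymes little, as far as the authors' estimates show. The deposited posterior SD of the gene count was 0 in both libraries for Hmgcs1, Mvd, Sqle and Dhcr7. It was 4.61 and 17.2 counts for Idi1, 4.18 and 5.90 for Fdps, 5.23 and 5.65 for Fdft1 and 0.47 and 0.48 for Lss. Each of these is small beside the counts of the gene, which were 6151 or more.

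Some of the genes overlap others in GENCODE M21, and it is not stated whether counting used strand. The 3′ end of Fdft1 shares 774 exon bases with Ctsb, a cathepsin gene on the opposite strand with 51876 and 61795 counts, so reads there could not be told apart without strand. Lss shares 381 exon bases with an antisense gene that held 2.11 and 3.15 counts. Mvd lies within the span of Gm20388 on the other strand, with 0 exon bases in common, and Gm20388 had 279 counts in replicate 1 and 0 in replicate 2. Fdps shares 1124 exon bases with Gm43738 on its own strand, Hmgcs1 557 with Gm48342 and Idi1 323 with Gm48574. These 3 genes are not among those measured, so reads from them could not be told apart from reads of the enzymes. The posterior SD does not cover this.

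The 8 genes had little else in common by structure. Leading transcripts ranged from 1241 nt (Fdps) to 4667 nt (Lss), with a median of 2809 nt beside 2013 nt over the 5967 protein-coding genes at 10 TPM or more. GC content ranged from 41.9% (Idi1) to 59.3% (Mvd), with a median of 51.2% beside 50.8%. Exons numbered from 5 (Idi1) to 22 (Lss), with a median of 10 beside 8. Coding sequences had 283 codons in Idi1, 353 in Fdps, 401 in Mvd, 416 in Fdft1, 471 in Dhcr7, 520 in Hmgcs1, 572 in Sqle and 733 in Lss, without the stop. The genes lie on 7 chromosomes, with Hmgcs1 and Idi1 both on chromosome 13.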

How the data were processed

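Total RNA-seq of 2 libraries was analysed from gene and transcript tables. Expected counts were estimated by the authors for each gene and transcript and are unscaled. TPM and posterior mean TPM, as deposited, correct for transcript length and count spike-ins in their total. The bounds of the TPM intervals and the posterior SD of the count are further deposited scores of the authors' quantification. Per the companion descriptions the tables use mm10 with annotation M4. The columns carry the names used by RSEM, and which aligner and quantifier were run is not given in the sources used here.

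Spike-ins (97 entries) and 26248 entries with a numeric identifier, which held 15 and 25 counts, were left out and TPM rescaled over 43346 genes. TPM of very short transcripts is inflated, since few effective bases carry each count. Symbols and coordinates came from GENCODE M21 (GRCm38), promoters from RefSeq (GRCm38.p6). All 8 enzymes and all 109 listed symbols in 15 lists were matched. The members and lists were chosen with earlier results of these data known. Named were the 19 enzymes given, and in every other list the highest and lowest gene and the one that differed most between libraries. Marker lists are given by their sums and medians. Srebf1, Srebf2, Ggps1, Nr5a1, Hsd3b1 and the overlapping genes were named beyond this rule, after their values were seen. Some results are not reported here, and list sums and medians leave those genes out. Transcripts named were the leading one and any other with at least 10% of the gene in both libraries, and 2 further forms of Dhcr7 named after their values were seen.

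A pseudocount of 1 TPM was used for log2 ratios. Values are mean and SD over the 2 libraries. Each replicate is a pool of embryos, so the SD is between pools. Intervals allow for counting error alone. They may be too narrow even for that, because PCR copies without molecular identifiers do not count molecules independently. No comparison between groups could be made and no test across genes was run. The 2-fold rule was run on counts simulated with counting error alone, which does not show its error rate between pools. Alternatives were a pseudocount of 0.1, other filters, posterior mean TPM, expected counts, TMM scaling in edgeR 4.0.16, DESeq2 1.42.0 size factors on rounded counts, spike-in scaling, the leading transcript alone (chosen after the data were seen) and each library alone. In these alternatives the TMM, DESeq2 and spike-in factors were applied to TPM. Software was R 4.3.3 and Python 3.11.15 with SciPy 1.17.1, pandas 2.3.3, matplotlib 3.10.9 and NumPy 2.4.6.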

Additional observations from a re-analysis of the deposited data

How the results depend on the processing

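The summed level of the 8 enzymes was 831 TPM, 804 TPM with spike-ins kept in the total, 797 TPM with the leading transcript alone and 817 to 846 TPM with 1 library left out. Of the 7 neighbouring pairs in the order, 6 to 7 were kept with 1 library left out and 5 by expected counts. The median log2 ratio of the 8 enzymes was -0.06, and it was -0.0037 by expected counts and 0.086 with spike-in scaling. Genes past 2-fold numbered 59 and were 229 with a filter of 1 TPM and 31 by expected counts. With no filter they were again 229, which the pseudocount of 1 TPM fixes in advance. Of the 8 enzymes, 0 passed under any scaling or pseudocount tried. Protein-coding genes at the level minimum numbered 5967, 3915 at 20 TPM and 6070 to 6201 with 1 library left out. Enzymes whose leading transcript held 90% or more numbered 7, and 6 to 7 with 1 library left out. Among them, the share of Hmgcs1, Mvd, Fdps and Fdft1 was fixed by their single listed transcript. The cause of these shifts was not tested. Expected counts for the median and for the 2-fold count, and the leading transcript alone, were chosen after the data were seen. No paired analysis was possible because the study holds a single group. With 2 libraries the SD rests on 1 difference. The count of Mvd, the lowest enzyme, has a Poisson interval of 1135 to 1272 in replicate 1, which may be too narrow.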
